A study of Mus musculus with 6 samples.

Results

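Voltage-gated sodium and calcium channels were represented by 35 genes among the 15095 genes of the deposited expression table of mouse neural progenitor cells (NPCs). They were all genes whose symbol is Scn followed by a number and a or b, or begins with Cacna, Cacnb or Cacng. Of the 40 mouse genes that a hand-written list of these families holds, Scn7a, Scn10a, Scn11a, Cacna1f and Cacng1 were not listed in the table. The 35 genes comprised 16 pore-forming subunits (7 for sodium and 9 for calcium channels) and 19 auxiliary subunits.

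PolyA RNA was sequenced from 3 wild-type and 3 Setd2-KO libraries at day 8 of neuronal differentiation. Setd2 encodes the enzyme that places the histone mark H3K36me3 along transcribed genes. Wild-type cells were HA36CB1 mouse embryonic stem cells, and Setd2-KO cells were a knockout line made earlier in the same background, and which clone or clones gave the RNA libraries was not found in the sources, so that effects of the knockout and of the line cannot be told apart. Both were grown as floating aggregates for 4 days without and 4 days with 5 uM retinoic acid, and the titles call the result NPCs while the cell type field of the labels names embryonic stem cells. The table gives each gene's log2 fold change, turned here to Setd2-KO over wild type so that a negative value is lower in Setd2-KO, and its average log2 CPM (CPM being read counts scaled to library size) over the 6 libraries. It also gives the p-value of edgeR's glmTreat test against an absolute log2 fold change of 1, and the FDR over all genes. Genes with an FDR under 0.05 are called downregulated or upregulated below, and one that missed this threshold is not thereby shown to be unchanged. Values per library were not used here, so no SD, standard error or depth can be given, and the sources do not state whether the replicates of each genotype were differentiated separately. The test thus rests on how far replicates lay apart, and that spread can be technical. Setd2 itself had a log2 fold change of -0.44 (FDR 1, average log2 CPM 6.88), which does not check the genotype because a mutation that removes the protein can leave the transcript in place.

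Voltage-gated sodium channels carry the inward current that starts the action potential, and voltage-gated calcium channels turn depolarization into calcium entry that drives transmitter release and gene regulation. Each has a large pore-forming alpha subunit and smaller auxiliary subunits that set its trafficking and gating. In developing neurons, both families are acquired as cells leave the progenitor state.

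In Setd2-KO NPCs, 3 of the 35 channel genes were downregulated (8.57%) and 0 were upregulated, while 2.11% of all genes were downregulated and 1.54% were upregulated. The downregulated genes were Cacnb1, Scn3a and Cacna2d2, which encode a cytoplasmic beta subunit of calcium channels, a sodium channel pore and an extracellular alpha2delta subunit of calcium channels. Without adjustment, 6 channel genes had a p under 0.05 in the lower direction (all genes: 3.43%) and 0 in the higher direction (all genes: 2.54%). The median log2 fold change of the 35 genes was -0.46 (quartiles -0.97 and 0.01), beside 0.01 for all genes (quartiles -0.30 and 0.29). Below 0 lay 25 of the 35 genes (71.4%), against 49.2% of all genes. Values of -1 or lower were found for 7 of the 35 channel genes, against 709 of the 15095 genes (4.7%). Values of 1 or higher were found for 0 of the 35 channel genes and for 578 of the 15095 genes.

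Markers of neurons were examined beside the channel genes. All 15 of the neuronal markers examined had a log2 fold change below 0 (median -1.06, range -1.49 to -0.56), and 6 were downregulated, among them Mapt (-1.32), Syt1 (-1.49), Gap43 (-1.32) and Elavl3 (-1.28). The marker with the most reads was Tubb3, a tubulin of neurons, at an average log2 CPM of 9.75 and a log2 fold change of -0.99. Of 9 progenitor markers listed, 1 was downregulated (Fabp7, -2.91), 0 were upregulated and the median was 0.01. Of these 9, 5 lay above 0, among them Pax6 at 0.74, Hes1 at 0.62 and Sox2 at 0.60, none of which was called. The other 4 lay below 0, among them Fabp7 and Nes (-0.63, not called). In bulk RNA, fewer neurons and less channel mRNA per neuron cannot be told apart, and the part of the neuronal markers in the channel values was not tested. Of the defining markers, Sox1 of progenitors and Myod1, Myog, Myf5, Myf6, Myh8 and Ckm of skeletal muscle were not listed.

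**Figure D1:**
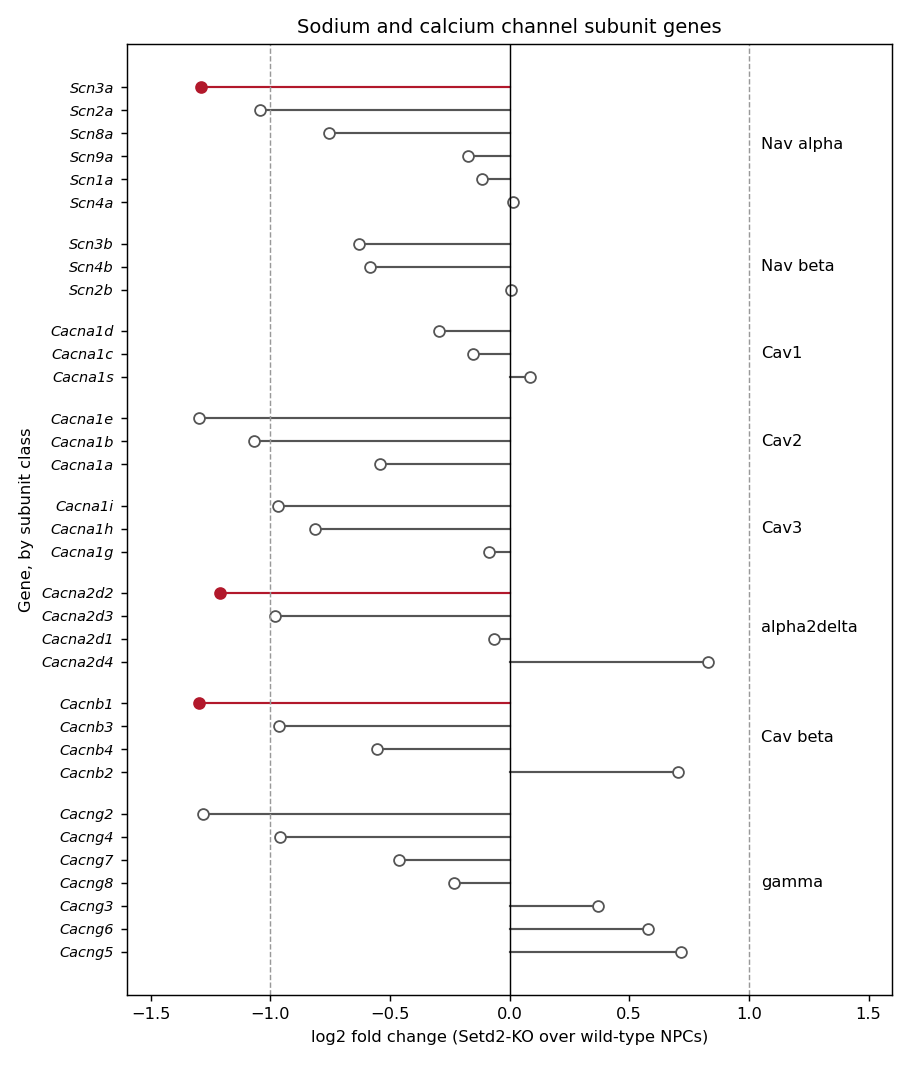
log2 fold change of the channel genes named in the text (x axis, Setd2-KO over wild type), grouped by subunit class (y axis). Filled red points are the 3 downregulated genes (FDR under 0.05), open points missed the threshold, and dashed lines mark the fold change of 1 in either direction that was tested. Values run from -1.30 to 0.83, and 7 genes lie at or beyond the lower line while none reaches the upper.

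Of the 7 sodium channel pores 1 was downregulated, Scn3a, the Nav1.3 channel of embryonic neurons. Scn3a fell by 1.29 on the log2 scale, to 40.9% of its wild-type level (average log2 CPM 4.60 and FDR = 0.000234). On GRCm39 it spans 110.5 kb of the minus strand of chromosome 2, from 65287462 to 65397971. Scn2a, the Nav1.2 channel of immature axons, had a value of -1.04 (average log2 CPM 2.22 and FDR = 1). Its point estimate was thus 48.5% of wild type, which lies close to the limit against which the test was made. Scn8a, which encodes the Nav1.6 channel of mature nodes and axon initial segments, was at -0.75. Further alpha subunits were Scn9a (-0.17), the Nav1.7 channel of sensory and sympathetic neurons, Scn1a (-0.12), the Nav1.1 channel of inhibitory neurons, and Scn4a (0.01) of skeletal muscle. The class thus held 1 call.

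Read counts grow with transcript length, so levels of channel genes were ranked as average log2 CPM per kb of the canonical transcript, and average log2 CPM without length is given only for the reads behind a gene. On this scale Scn8a was the most abundant alpha subunit (2.01), followed by Scn3a (1.32), Scn2a (-0.91), Scn9a (-1.09), Scn1a (-2.71) and Scn4a (-4.03). The most abundant sodium channel pores, Scn8a and Scn3a, thus had values of -0.75 and -1.29 for the difference between genotypes. These levels are means over both genotypes, and whether neighbours in this order differ beyond the spread of the libraries cannot be read from the table.

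No sodium channel beta subunit was called. These single-span proteins modulate gating and act as adhesion molecules. Scn3b had a log2 fold change of -0.63 and Scn4b of -0.58, whereas Scn2b was at 0.00. Scn3b was the most abundant of the 4 per kb (1.34), and Scn4b lay at -3.70 on the same scale.

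Among calcium channel pores, 0 of 9 genes were called. The Cav2 genes, which encode the presynaptic channels that trigger transmitter release, had a median of -1.07, beside -0.81 for Cav3 and -0.15 for Cav1. Cacna1b, the N-type pore, was at -1.07 (average log2 CPM 5.11 and FDR = 0.625), and Cacna1e, the R-type pore, was at -1.30 (average log2 CPM -0.26 and FDR = 0.451). Cacna1a, the P/Q-type pore, was at -0.54. Cacna1b and Cacna1a were close in level per kb (1.82 and 2.01), and Cacna1e was far less abundant (-4.20).

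The Cav3 genes encode T-type pores, which open near the resting potential and are found early in neuronal development. Cacna1h was at -0.81 and Cacna1i at -0.97, whereas Cacna1g was at -0.08. Cacna1h and Cacna1g were the most abundant calcium channel pores per kb (3.38 and 2.09), and the difference between their fold changes was not tested. The Cav1 genes encode L-type pores, which couple depolarization to contraction and to gene regulation. Cacna1d was at -0.29, Cacna1c at -0.15 and Cacna1s, the skeletal muscle pore, at 0.08.

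The calcium channel beta subunits bind the pore from the cytoplasm and carry it to the membrane. Cacnb1 fell by 1.30, to 40.7% of its wild-type level (average log2 CPM 5.62 and FDR = 4.63e-06), and had the lowest FDR of all channel genes. Cacnb1 encodes the beta subunit best known from skeletal muscle and is also expressed in brain. It lies on chromosome 11 from 97892204 to 97913860 (GRCm39, minus strand). Cacnb3, the most abundant channel gene per kb (6.28), was at -0.96, or 51.2% of the wild-type level, and was not called (FDR = 1). Cacnb4 was at -0.56 and Cacnb2, a beta subunit of heart and brain, at 0.70. By level per kb, Cacnb3 was followed by Cacnb1 (3.84), Cacnb2 (-0.34) and Cacnb4 (-3.41).

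Cacnb1, Scn4a and Cacna1s are also used in muscle, so muscle markers were examined. Of 12 skeletal muscle markers 6 were listed, of which 1 was upregulated (Des, 1.86), 0 were downregulated and the median was 0.22. Of 8 heart markers listed 0 were called, with a median of 0.31. Of these 8, 6 lay above 0 and 2 below, and 3 were at 1 or higher, as were 578 of the 15095 genes. Their reads were few, with a median average log2 CPM of 0.14. The summed level of these markers per library was not available here.

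The alpha2delta subunits are anchored outside the membrane and promote channel delivery to synapses. Cacna2d2 fell by 1.21, to 43.2% of its wild-type level (average log2 CPM 5.80 and FDR = 0.00226). It spans 129.7 kb of the plus strand of chromosome 9, from 107276811 to 107406543 (GRCm39). Cacna2d3 was at -0.98 (FDR = 1), close to the tested limit, Cacna2d1 was at -0.07, and Cacna2d4, known from the retina, had the highest value of all channel genes at 0.83. Cacna2d2 and Cacna2d3 were also the most abundant of the class per kb (3.27 and 2.67), against -0.10 for Cacna2d1 and -3.88 for Cacna2d4.

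The gamma genes encode proteins that span the membrane several times, some of which act as auxiliary subunits of AMPA-type glutamate receptors (TARPs). Cacng2, which encodes the TARP stargazin, had a value of -1.28 (average log2 CPM 1.17 and FDR = 0.188) and was not called. The abundant members Cacng7 and Cacng4 (4.77 and 4.05 per kb) were at -0.46 and -0.96. Cacng8 was at -0.23, and the low-level genes Cacng3, Cacng6 and Cacng5 were at 0.37, 0.58 and 0.72. Thus 4 of the 7 gamma genes lay below 0, and the class median was -0.23.

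The calls fell in 3 of the 8 subunit classes. The pore-forming subunits held 1 downregulated gene of 16 (median -0.42, 13 below 0) and the auxiliary subunits 2 of 19 (median -0.46, 12 below 0). Sodium channel genes held 1 of 11 (median -0.17) and calcium channel genes 2 of 24 (median -0.50). With 1 or 2 calls per group, no difference between them was tested.

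**Figure D2:**
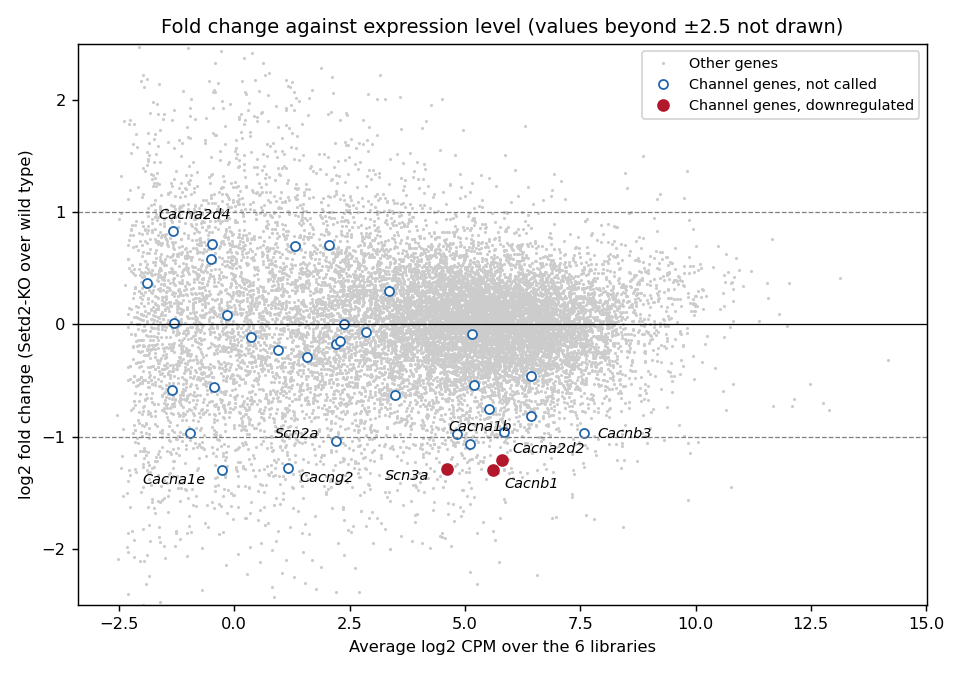
log2 fold change (y axis, Setd2-KO over wild type) against average log2 CPM over the 6 libraries (x axis), with channel genes as circles and all other genes as grey points. Filled red circles are the 3 downregulated channel genes. To the right of an average log2 CPM of 3, 13 of 14 channel genes lie below 0.

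Channel genes with more reads had the lower values. At 3 or more on the average log2 CPM scale, 13 of 14 channel genes lay below 0 and their median was -0.89, whereas all 10244 genes at such levels had a median of 0.00. From 0 to 3, 8 of 11 lay below 0 with a median of -0.15. Under 0, 4 of 10 lay below 0 with a median of 0.05, and fold changes are least precise there. Across the 35 genes, average log2 CPM and log2 fold change had a Spearman rho of -0.45 and a Pearson r of -0.49, and across 14612 protein-coding genes rho was -0.05. Both measures come from the same 6 libraries, and genes are not independent replicates.

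Channel genes are long, with a median span of 110.5 kb (range 10.8 to 818) against 26.5 kb for all protein-coding genes of the table. Within the channel genes, span and log2 fold change had a rho of -0.19 (n = 35 genes), which became 0.042 among the 25 genes whose average log2 CPM was 0 or higher. The 17 channel genes under 100 kb had a median of -0.08 and the 11 genes from 100 to 300 kb a median of -0.97. For the 7 genes over 300 kb the median was -0.29. In all protein-coding genes, the same bins had medians of 0.02, -0.02 and -0.21. The downregulated genes themselves ran from 21.7 kb (Cacnb1) over 110.5 kb (Scn3a) to 129.7 kb (Cacna2d2). The longest channel gene, Cacna2d3 (818 kb), was not called.

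Several channel genes lie beside each other, and their values were set side by side. On chromosome 2, Scn3a, Scn2a, Scn1a and Scn9a lie within 1178 kb, with log2 fold changes of -1.29, -1.04, -0.12 and -0.17. Between Scn2a and Scn1a, the listed genes Csrnp3, Galnt3 and Ttc21b were at 0.07, 0.81 and 0.41. On chromosome 7, Cacng7, Cacng8 and Cacng6 lie within 105 kb and were at -0.46, -0.23 and 0.58. On chromosome 11, Cacng4 and Cacng5 lie within 188 kb and were at -0.96 and 0.72, but Cacng5 had an average log2 CPM of only -0.49. On chromosome 9, Scn2b and Scn4b were at 0.00 and -0.58. None of the differences between neighbours was tested.

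**Figure D3:**
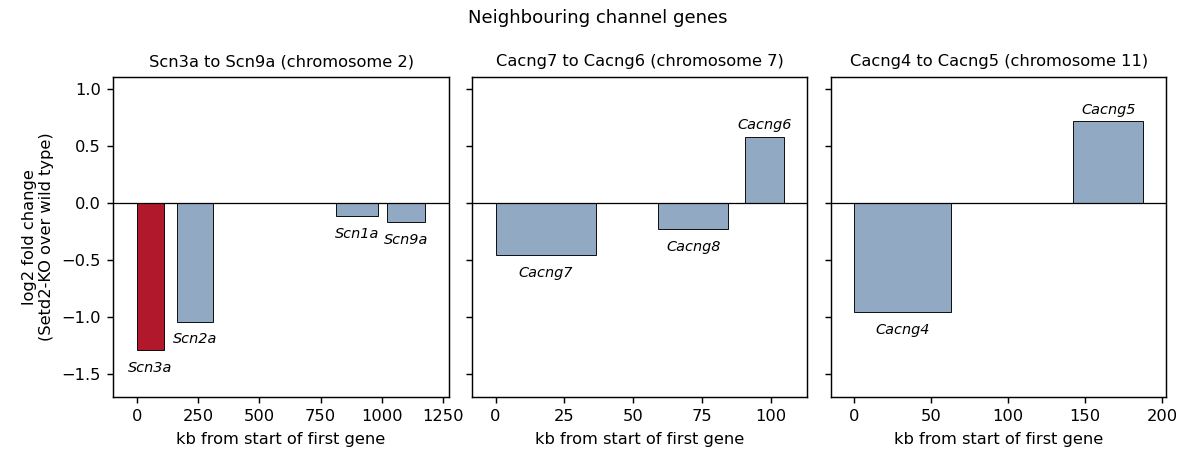
log2 fold change (y axis, Setd2-KO over wild type) of channel genes in 3 genomic clusters against the distance in kb from the start of the first gene (x axis), each bar being as wide as its gene. The downregulated gene Scn3a is red, other bars missed the threshold, and Scn3a and Scn2a at -1.29 and -1.04 stand beside Scn1a and Scn9a at -0.12 and -0.17.

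REST is a repressor that keeps neuronal genes, ion channels among them, silent outside neurons by binding a long element in DNA. The element was searched within 5000 bases on either side of each gene's canonical start on both strands of GRCm39, as its left part TTCAGCACC and its right part GGACAG with 2 free bases between them and at most 2 mismatches in the 15 fixed letters. Such a match was found for 6 of 35 channel genes (17.1%), against 759 of 15066 genes (5.04%), 12.9% of downregulated and 5.6% of upregulated genes. The 6 matches are printed 5′ to 3′ on the strand of the element because they show how close each comes to it, with both parts in capitals and the free bases and the 4 bases after the element in lower case.
Cacna1b: GTCAGCACCacGGACAGctgc
Cacng7: TTCAGGACCatGGACAGcacc
Scn3b: CTCAGCACCacGGACAGtagc
Cacna1i: TGCAGCTCCcaGGACAGactc
Cacna2d4: TCCAGGACCatGGACAGaaac
Cacng3: TTCAGCACCacGGACCTccaa
Cacna1b, Cacng7 and Scn3b each had 1 mismatch, and the other three had 2.

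The matches lay at chr2:24652095-24652115 (plus strand) for Cacna1b, chr7:3376714-3376734 (minus) for Cacng7, chr9:40181036-40181056 (minus) for Scn3b, chr15:80174087-80174107 (plus) for Cacna1i, chr6:119210192-119210212 (plus) for Cacna2d4 and chr7:122270169-122270189 (plus) for Cacng3. In Cacna1b, Scn3b, Cacna1i and Cacng3 the match was inside the gene, at 1118, 557, 2659 and 462 bases after the start, and in Cacng7 and Cacna2d4 it was 3807 and 3208 bases before it. The genes with a match had log2 fold changes from -1.07 (Cacna1b) to 0.83 (Cacna2d4). None of the downregulated channel genes had a match in this window, which says only that these letters are not there. For some channel genes the canonical start lies far inside the gene, so the window did not reach the gene's outer end. For Scn2a that start is at 65499102 on chromosome 2, while the gene begins at 65451102, and Cacna1e and Cacna1a are further examples. Elements outside the window were not searched for in any gene. Rest itself was at 0.47 (FDR 1), and of REST and its corepressors 0 of 8 were called (median 0.05), with Rcor2 at -0.74.

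For the downregulated channel genes, the 250 bases before the start sites of RefSeq (GRCm38.p6) are shown where the reference table had them, with each GC box (GGGCGG or its reverse complement CCGCCC), a common element of promoters without a TATA box, in capitals. Scn3a is named only. Cacnb1 had 2 start sites, at whose upstream sides lie chr11:98022628-98022877 and chr11:98018373-98018622 (both minus strand), and Cacna2d2 had chr9:107399630-107399879 (plus strand).
Cacnb1 outer start: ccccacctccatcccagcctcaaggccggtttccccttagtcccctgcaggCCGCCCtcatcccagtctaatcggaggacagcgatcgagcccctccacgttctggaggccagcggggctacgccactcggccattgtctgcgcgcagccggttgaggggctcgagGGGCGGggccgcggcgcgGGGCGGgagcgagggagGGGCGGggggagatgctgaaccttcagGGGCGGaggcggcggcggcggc
Cacnb1 inner start: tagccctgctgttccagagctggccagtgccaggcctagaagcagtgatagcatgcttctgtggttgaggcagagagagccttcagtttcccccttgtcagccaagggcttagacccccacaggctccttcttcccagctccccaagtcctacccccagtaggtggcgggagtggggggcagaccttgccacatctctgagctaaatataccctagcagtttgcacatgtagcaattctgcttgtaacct
Cacna2d2: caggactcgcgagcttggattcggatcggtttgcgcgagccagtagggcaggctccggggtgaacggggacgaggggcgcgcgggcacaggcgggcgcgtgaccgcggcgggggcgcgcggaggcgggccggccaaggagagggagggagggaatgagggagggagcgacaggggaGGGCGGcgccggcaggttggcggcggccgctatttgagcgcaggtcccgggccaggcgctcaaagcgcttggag
The outer window of Cacnb1 held 5 GC boxes and 73.2% G and C, the inner window 0 GC boxes and 56.0%, and the window of Cacna2d2 held 1 GC box and 74.4%. A GC box was present in 13 of 37 windows of 26 channel genes (35.1%), against 56.1% of 14876 windows of genes of the table and 32.7% of all 32851 windows. Matches describe the letters and not the binding of a factor.

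Partners of the channels were described from lists of their own. Of 18 sodium channel partners, which anchor or modulate the pore, 0 were called and the median was -0.16. Nedd4, a ubiquitin ligase that removes channels from the membrane, and Ank2, an ankyrin, had the most reads (average log2 CPM 10.6 and 7.43, not scaled to length) and were at 0.16 and -0.93. A list of 31 genes held calcium channel partners together with AMPA receptor subunits and auxiliary proteins of those receptors. Of the 31, 4 were downregulated (12.9%, beside 2.11% of all genes), 0 were upregulated and the median was -0.10. This share does not describe calcium channel partners alone. The downregulated genes of this list were Cnih2 (-1.89, FDR = 5.42e-10), Gria2 (-1.89, FDR = 2.99e-09), Shisa7 (-1.38, FDR = 4.69e-06) and Jph4 (-1.24, FDR = 0.0376). Cnih2 and Shisa7 encode auxiliary proteins of AMPA receptors and Gria2 a pore subunit of those receptors, while Jph4 encodes a junctophilin that holds the endoplasmic reticulum near the plasma membrane. Other AMPA receptor genes of the list were not called, with Gria1 at -1.24, Gria4 at -0.49, Gria3 at 0.17, Shisa6 at 0.38 and Cnih3 at 0.54. Among the gamma genes, 0 of 7 were called.

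Other ion channel families were set beside these genes. Of 73 genes with symbols beginning with Kcn, most of them potassium channel genes, 7 were downregulated (9.59%), 0 were upregulated and the median was -0.19. Of 49 receptor genes for glutamate, GABA, glycine and acetylcholine 6 were downregulated (12.2%), 1 was upregulated and the median was -0.40. Gria2 is counted here as well as in the list of calcium channel partners and AMPA receptor genes. Both sets were taken by symbol and include a few genes that encode no channel or receptor subunit. Some of the Kcn genes encode calcium-binding partners of the channels and are also counted among the calcium effectors below. The share in the sodium and calcium channel genes was 8.57%, and no difference between the families was tested. Of 11 other voltage-gated or leak cation channel genes 0 were called and the median was -0.37. Those with the most reads were Tpcn1, a channel of endolysosomes, at 0.06 and Hcn3, a pacemaker channel, at -0.79.

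**Figure D4:**
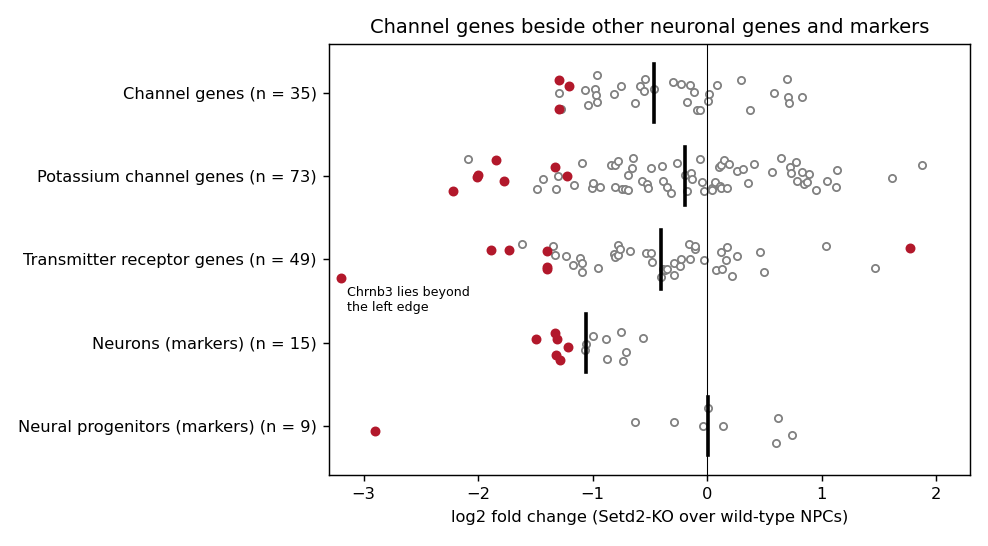
log2 fold change (x axis, Setd2-KO over wild type), 1 point per gene with random vertical spread. Shown are the 35 sodium and calcium channel genes, 73 genes with Kcn symbols, 49 transmitter receptor genes, 15 neuronal and 9 progenitor markers. Red points passed the threshold and black bars are medians, at -0.46, -0.19, -0.40, -1.06 and 0.01 from top to bottom.

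Exons of 20 of the 35 channel genes overlap exons of another annotated gene, and the sources used here do not say whether counting used the strand that the directional kit preserves. Among the called genes, Cacnb1 shares 80 bases with the noncoding gene Gm11629 and Cacna2d2 shares 82 bases with Gm17141, both on the opposite strand. Cacna2d4 shares 49 bases with Lrtm2, which was at 1.29 (FDR = 0.273), and Cacng4 shares 221 bases with Gm11650. Reads from these stretches may have been counted for either gene.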

How the data were processed

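PolyA-selected RNA had been sequenced in 6 libraries, 3 per genotype. The deposited table holds log2 fold changes, average log2 CPM, p-values and FDR that the authors computed with edgeR (glmTreat, with a log2 fold change of 1 in either direction as its limit) after trimming, alignment, counting, filtering of low counts and normalization, none of which could be repeated here. The deposited p-value and FDR columns and the fold changes are thus the authors' own comparison, used here because no column of values per library was at hand (0 such columns were left out). Per the submitters' processing notes, Trim Galore, STAR and edgeR were used, with the builds NCBIM37 and mm9, whereas the paper's methods name GRCm39 and Salmon. Depth is unknown, and average log2 CPM is the only guide to precision.

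The sign was reversed to give Setd2-KO over wild type. With this sign, 518 of 523 genes shared with a supplementary dataset of the study had the same direction, as did all 4 channel genes that this dataset holds. The paper cites that dataset for its differentially expressed genes, whereas 3 channel genes were called here. Why these numbers differ was not tested. The Benjamini-Hochberg adjustment was recomputed over 15095 genes and gave the deposited FDR. Gene IDs were matched to GENCODE vM39 on GRCm39 (15066 found, 29 not, all 35 channel genes found) for positions, spans and canonical starts, and no coordinates were converted. The steps were checked on simulated data. Channel genes are named, except some whose values are not reported here and which stay in the counts and medians, as are Setd2 and, from each list, up to 4 called members with the lowest p or otherwise up to 2 with the highest average log2 CPM. Other genes were named after their values were seen. These were neighbours and overlapping genes, Rest, Tubb3, Pax6, Hes1, Sox2 and Nes. Also named in this way were the AMPA receptor genes that were not called and the genes of markers not listed. The channel genes and the 12 lists (196 entries, 179 in the table) were chosen with earlier results of these data known. Scripts used Python 3.11.15, pandas 2.3.3, numpy 2.4.6, scipy 1.17.1, pysam 0.24.0 and matplotlib 3.10.9.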

Additional observations from a re-analysis of the deposited data

How the results depend on the processing

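The table holds no value per library. No paired analysis was possible because the columns carry no replicate, and leaving out each library in turn could not be run. The count of 3 downregulated channel genes was the same at an FDR of 0.01 or 0.10, with the Benjamini-Yekutieli adjustment and among genes at 0 or more, or 3 or more, on the average log2 CPM scale, and it was 6 at an unadjusted p under 0.05, where Cacng2, Cacna1e and Cacna1b joined. Under the same settings the count of upregulated channel genes was 0 throughout, also by unadjusted p. All of these settings reuse the deposited glmTreat p-values. The 3 downregulated genes had an FDR of 0.00226 or lower and the next channel gene, Cacng2, had 0.188. The FDR settings could therefore hardly change the count. Over all genes, unadjusted p gave 518 lower and 384 higher genes in place of 319 and 232. Under these same filters on average log2 CPM (0 and 3), the median log2 fold change of the channel genes moved from -0.46 to -0.54 and -0.89, and the share below 0 from 71.4% to 84.0% and 92.9%. The relation of gene span to log2 fold change turned from a rho of -0.19 to 0.042 under the filter at 0. The REST element was found in 6 channel genes, in 3 with at most 1 mismatch and in 0 with no mismatch, settings chosen after the data were seen. The cause of these shifts was not tested. The filters left fewer channel genes (25 and 14), and the stricter searches let fewer letters differ. Counted over results and settings, and so with the calls of single genes repeated, 47 values kept their direction and side of the threshold, 3 passed it newly, 7 moved and 1 turned its sign.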

Other observations

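Genes that handle the calcium these channels admit were examined too. Of 28 genes of intracellular stores, pumps and exchangers 2 were downregulated (7.14%, beside 2.11% of all genes) and 0 were upregulated. The median was 0.00, with 14 of the 28 below 0. The downregulated genes were Slc8a2 (-1.19, FDR = 0.00446), a sodium-calcium exchanger of neurons, and Atp2b2 (-1.31, FDR = 0.00972), a calcium pump of the plasma membrane, both of which remove calcium from the cytoplasm. Of 31 calcium effectors, such as calmodulin-dependent kinases, calcineurin subunits and calcium-binding proteins, 0 were called by edgeR's glmTreat, 0 had an unadjusted p under 0.05, and the median was 0.03. The effectors with the most reads (average log2 CPM, not scaled to length) were Nfatc3 (0.32) and Ppp3cb (-0.16).

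Markers of other cell types gave 1 upregulated gene of 7 glial markers (Olig1, 2.07, median -0.08). Of 7 markers of pluripotent cells, 1 was upregulated (Utf1, 1.91) and 1 downregulated (Tdgf1, -1.97), with a median of -0.42. Tdgf1 had an average log2 CPM of only -1.52, a level at which fold changes are least precise. Of all genes, 1.54% were upregulated and 2.11% downregulated.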
